A study of Mus musculus with 4 samples.

Results

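The genes described here are 10 genes of absorptive epithelium that textbooks assign mainly to the small intestine, and they were followed in RNA from mouse colon. Of these, 5 encode enzymes anchored in or bound to the apical membrane: Sis, Lct, Treh, Anpep and Akp3. A further 4 serve the export of dietary fat, namely Apoa1, Apoa4, Apob and Mttp, and Prap1 encodes a secreted epithelial protein. They were chosen by their symbols from the 24016 genes of the deposited count table, with their values in these same libraries already known, so every level and ratio given for them is a description and not a test. All 10 have a mean of at least 1 CPM (a gene's counts scaled to the size of its library) over the 4 libraries, as do 14450 genes in all. For Lct this rests on the untreated library, because its mean over the other 3 libraries was 0.414 CPM.

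Enterocytes, the absorptive cells of the gut lining, carry a brush border of densely packed microvilli. Its membrane holds hydrolases that finish the digestion of sugars and peptides at the cell surface. Absorbed fat is packed inside the same cells around apolipoprotein B into chylomicrons, which leave the cell with other apolipoproteins on their surface. These functions are strongest in the duodenum and jejunum and low in the colon, which mainly absorbs water, salts and short-chain fatty acids.

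The mice were germ-free C57BL/6 animals aged 7 weeks, and no library came from animals with an established microbiota. In the untreated group nothing was given, and the other groups received by gavage phosphate-buffered saline (PBS), Escherichia coli or the probiotic Lactobacillus rhamnosus GG (LGG). The labels give the bacterial dose as 2 x 10E9 colony-forming units per mL, with no volume. A 4 cm stretch of colon was collected 4 h after gavage. The labels give 4 mice for each gavaged group, no number for the untreated group, no statement on pooling and no position of the piece along the colon. Each condition is 1 library, so no difference has a replicate check and no p-value is given. Every interval below is a 95% counting interval. In a piece of whole tissue, fewer cells of a type and less RNA per cell cannot be told apart.

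The libraries held between 16289580 (PBS) and 29899371 (LGG) assigned counts, so the PBS library is the least precise. Markers of colon epithelium were abundant in every library: all 12 listed colonocyte genes were detected, with summed levels of 8166 to 10965 CPM, and Car1, a carbonic anhydrase of colonocytes, stood between 2686 and 3623 CPM. Of 15 Paneth cell genes, which mark small intestinal crypts, 10 were at 0 in all 4 libraries, and all of these were Defa genes. No source used here says how reads that match several genes of the same family were counted. The list summed to 48.1 to 87.2 CPM, and its 3 genes with a mean of at least 1 CPM, Lyz1, Ang4 and Itln1, were each higher after PBS than untreated, with Ang4 at 38.0 and 72.7 CPM. Genes of ileal bile acid handling summed to 170 to 301 CPM, and Fgf15, the hormone gene of that list, had 1 count in all. No small intestinal library was measured, so the levels below cannot be set against that tissue.

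The stretch around the start site of each gene is shown for the 3 enzymes with the lowest ratios after PBS and for Apoa4, the apolipoprotein with the widest range, because these are the members on which the description turns. Sequences are from RefSeq on build GRCm38.p6, on the gene's own strand, from 250 bases before to 50 bases after the start site, and all 10 genes matched by symbol. They lie at chr1:87124704-87125003 (+) for Akp3, chr1:128328269-128328568 (-) for Lct, chr9:44672983-44673282 (+) for Treh and chr9:46240594-46240893 (+) for Apoa4. Capitals mark matches, on either strand, to short motifs of factors known from intestinal epithelium.

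Akp3: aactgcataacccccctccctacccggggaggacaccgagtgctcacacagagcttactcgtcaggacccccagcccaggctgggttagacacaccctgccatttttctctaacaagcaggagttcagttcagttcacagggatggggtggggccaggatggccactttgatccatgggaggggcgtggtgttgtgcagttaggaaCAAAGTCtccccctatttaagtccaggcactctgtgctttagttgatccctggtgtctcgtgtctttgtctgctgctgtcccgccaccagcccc

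Lct: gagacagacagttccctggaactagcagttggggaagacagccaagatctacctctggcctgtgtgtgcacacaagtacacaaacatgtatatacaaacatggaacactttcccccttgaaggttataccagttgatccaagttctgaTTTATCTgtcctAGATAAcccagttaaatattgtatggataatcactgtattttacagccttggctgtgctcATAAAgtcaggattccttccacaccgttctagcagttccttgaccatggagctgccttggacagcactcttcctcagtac

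Treh: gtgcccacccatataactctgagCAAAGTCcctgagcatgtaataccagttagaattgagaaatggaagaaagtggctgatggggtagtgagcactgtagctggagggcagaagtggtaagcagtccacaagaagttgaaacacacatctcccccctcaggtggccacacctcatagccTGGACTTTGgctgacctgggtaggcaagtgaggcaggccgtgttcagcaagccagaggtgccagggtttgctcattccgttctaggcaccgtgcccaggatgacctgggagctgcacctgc

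Apoa4: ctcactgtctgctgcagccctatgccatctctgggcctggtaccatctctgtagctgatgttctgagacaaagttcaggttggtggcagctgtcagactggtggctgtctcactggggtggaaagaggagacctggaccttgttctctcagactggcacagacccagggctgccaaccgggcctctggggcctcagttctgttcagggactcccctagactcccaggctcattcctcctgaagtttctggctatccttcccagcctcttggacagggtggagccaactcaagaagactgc

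The capitals in Akp3 are the letters CAAAGTC, the first part of a binding motif of HNF4, a nuclear receptor of gut and liver epithelium, which begin 44 bases before the start site. In Treh the first capitals are the same letters and the second are the longer HNF4 motif CAAAGTCCA on the opposite strand, within which the shorter motif also lies. In Lct the capitals are AGATAA, a motif of GATA factors, on both strands, and TTTAT, a motif of CDX factors. Of the TTTAT matches in Lct, one overlaps the more distant GATA match, and the other, on the opposite strand and written ATAAA, is nearer the start site and overlaps no GATA match. Over 32851 promoters of this length, CAAAGTCCA was present in 0.475%, CAAAGTC in 4.44%, AGATAA in 11.2% and TTTAT in 40.0%. The HNF1 motif GTTAAT was present in 7.10% and the TATA box letters TATAAA in 13.6%. Among the 10 genes, CAAAGTCCA was in 1 promoter (Treh), CAAAGTC in 2 (Akp3 and Treh), GTTAAT in 1 (Sis), AGATAA in 2 (Lct and Prap1), TTTAT in 4 (Lct, Sis, Prap1 and Apob) and TATAAA in 2 (Sis and Apob). Apoa4, Apoa1, Mttp and Anpep held none of these exact letters in this window. Variants of the motifs were not searched, and only 1 start site per gene was covered, so a gene without a match may still hold a site. A match is a description of the sequence and not a measured binding site.

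Akp3 encodes the duodenal form of intestinal alkaline phosphatase, which removes phosphate groups at the brush border (NM_007432, chromosome 1, 89021583 to 89024487 in mm9, the build of the count table). It was at 14.6 CPM in the untreated library (416 counts), 0.561 after PBS (9 counts), 0.0344 after E. coli (1 count) and 4.03 after LGG (118 counts). The order was therefore untreated, LGG, PBS and E. coli, and no 2 of the counting intervals of these levels overlapped. The highest level was 423-fold the lowest, but the lowest level is a single count. Akp3 had the widest log2 range of the 14450 genes with the prior of 0.5 counts used here. With a prior of 5 counts its range was 6.01 and that of Apoa4, 6.51, was wider. The ratio of PBS to untreated was -4.65 on the log2 scale (-5.84 to -3.76), that of LGG to PBS 2.80 (1.87 to 4.01) and that of E. coli to PBS -3.43 (-9.48 to -1.17). With a prior of 5 counts these were -4.29, 2.48 and -1.72.

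Lct encodes lactase, which splits milk sugar (NM_001081078, chromosome 1, 130181341 to 130224895). Its levels were 3.92 CPM in the untreated library (112 counts), 0.249 after PBS (4 counts), 0.172 after E. coli (5 counts) and 0.820 after LGG (24 counts). PBS and E. coli could not be told apart at this depth, with a log2 ratio of -0.49 (-2.75 to 1.80). LGG was above both, at 1.64 (0.18 to 3.71) against PBS and 2.13 (0.83 to 4.00) against E. coli, and below the untreated library at -2.23 (-2.96 to -1.61).

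Treh encodes trehalase, the enzyme for the fungal and insect sugar trehalose (NM_021481, chromosome 9, 44481316 to 44494388). It was at 2.70 CPM untreated (77 counts), 0.748 after PBS (12 counts), 0.964 after E. coli (28 counts) and 1.5 after LGG (44 counts). The untreated library stood above all 3 others, with PBS at a log2 ratio of -1.82 (-2.86 to -0.96) to it. LGG was above PBS at 0.99 (0.06 to 2.06). E. coli was slightly above PBS here, at 0.36 with an interval that includes 0 (-0.66 to 1.48).

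Sis and Anpep, the most abundant of the 5 enzyme genes, moved far less. Sis, sucrase-isomaltase, which splits sucrose and short starch fragments (NM_001081137, chromosome 3, 72692482 to 72770788), was at 28.9 CPM untreated, 14.7 after PBS, 12.4 after E. coli and 17.2 after LGG. Anpep, aminopeptidase N, which trims single amino acids from peptides (NM_008486, chromosome 7, 86966689 to 86987238), was at 64.9, 33.5, 41.9 and 41.1 CPM in the same order. Both were about 1 log2 unit lower after PBS than untreated, Sis at -0.97 (-1.19 to -0.76) and Anpep at -0.96 (-1.10 to -0.82), just short of the 2-fold limit used below. After either bacterium Anpep stood a little above PBS, at 0.33 (0.18 to 0.47) for E. coli and 0.30 (0.15 to 0.45) for LGG, and the bacteria did not differ beyond counting error (-0.03, -0.14 to 0.09). Sis after LGG was at 0.22 to PBS with a lower bound of 0.00.

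Apoa4, apolipoprotein A-IV, coats chylomicrons and is made in the gut with each fatty meal (NM_007468, chromosome 9, 46048927 to 46051541). It stood at 45.8 CPM in the untreated library (1308 counts), 1.25 after PBS (20 counts), 0.310 after E. coli (9 counts) and 5.95 after LGG (174 counts). The untreated level was 148-fold the level after E. coli, and again no 2 counting intervals overlapped. Its log2 ratio of PBS to untreated, -5.18 (-5.92 to -4.57), was the lowest of all 14450 genes. With a prior of 5 counts that ratio was -5.00, LGG to PBS was 2.09 in place of 2.24 and E. coli to PBS -1.51 in place of -1.94. After LGG it remained at 13.0% of the untreated level, a log2 ratio of -2.94 (-3.18 to -2.72).

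Apoa1 encodes apolipoprotein A-I, the main protein of high-density lipoprotein, made by liver and intestine (NM_009692, chromosome 9, 46036713 to 46038552). Its levels were 19.7 CPM untreated (561 counts), 4.61 after PBS (74 counts), 3.17 after E. coli (92 counts) and 15.5 after LGG (454 counts). LGG thus stood at 78.9% of the untreated level while PBS stood at 23.5% and E. coli at 16.1%. The log2 ratio of LGG to untreated was -0.34 (-0.52 to -0.16) and that of LGG to E. coli 2.29 (1.97 to 2.63).

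Apob, the structural protein around which each chylomicron is built, was the most abundant member in CPM and the least variable (NM_009693, chromosome 12, 7984483 to 8023645). It was at 183 CPM untreated (5222 counts), 120 after PBS (1931 counts), 113 after E. coli (3280 counts) and 122 after LGG (3576 counts). The 3 gavaged libraries lay close together, and LGG and PBS did not differ beyond counting error (0.02, -0.06 to 0.10). Mttp encodes the microsomal triglyceride transfer protein, which loads lipid onto apolipoprotein B (NM_001163457, chromosome 3, 137752819 to 137806352). It was at 6.73 CPM untreated (192 counts), 2.87 after PBS (46 counts), 2.27 after E. coli (66 counts) and 3.69 after LGG (108 counts). Its intervals against PBS included 0 for both bacteria, at -0.33 (-0.90 to 0.24) for E. coli and 0.36 (-0.15 to 0.90) for LGG.

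Prap1, a proline-rich acidic protein secreted by epithelium (NM_009475, chromosome 7, 147279295 to 147283102), followed the order of Akp3 at a smaller range. It was at 15.1 CPM untreated (431 counts), 4.86 after PBS (78 counts), 3.37 after E. coli (98 counts) and 10.7 after LGG (314 counts). Against PBS its log2 ratio was 1.14 (0.78 to 1.52) after LGG and -0.52 (-0.97 to -0.08) after E. coli.

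**Figure D1:**
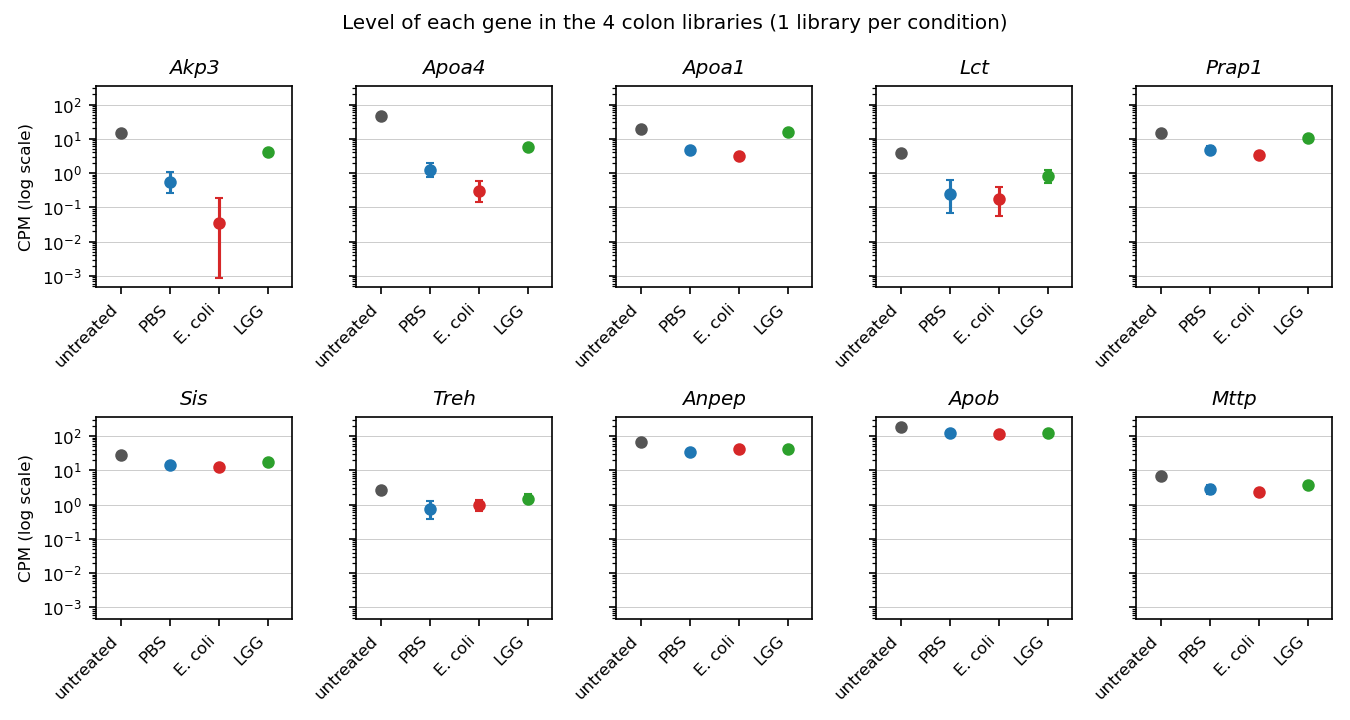
Level of each of the 10 genes in CPM (log scale) in the untreated, PBS, E. coli and LGG libraries, with 1 point per library and bars for the 95% counting interval. The untreated library is highest in all 10 panels, and the span runs from 423-fold for Akp3 to 1.62-fold for Apob.

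Gene length makes levels comparable between genes. In CPM per kilobase of transcript the untreated library ranked Apoa4 (27.6), Prap1 (24.6), Apoa1 (20.0), Anpep (19.1), Apob (13.2) and Akp3 (8.74) above Sis (4.94), Mttp (1.58), Treh (1.33) and Lct (0.638). After E. coli the top of that order was Anpep (12.3), Apob (8.14), Prap1 (5.49) and Apoa1 (3.23), and Apoa4 (0.187) and Akp3 (0.0206) had moved to eighth place and to last, around Lct (0.0280). Per unit length, Apoa4 was 1.38 times as abundant as Apoa1 in the untreated library (1.25 to 1.52) but 0.160 times after PBS (0.0923 to 0.265), 0.0578 times after E. coli (0.0256 to 0.115) and 0.227 times after LGG (0.189 to 0.270). The pair therefore changed places between the untreated library and every gavaged one. Apoa1 was 1.52 times as abundant as Apob untreated and 1.79 times after LGG, against 0.542 times after PBS and 0.396 times after E. coli. Sis and Anpep kept nearly the same proportion untreated (0.259), after PBS (0.256) and after LGG (0.244), and a lower one after E. coli (0.172, 0.153 to 0.194).

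A size rule was used to count genes in each comparison: a log2 ratio of at least 1 in size, a counting interval that excludes 0 and a mean of at least 1 CPM. Since the members were selected on these contrasts, the share of all genes past the rule is printed beside each count and nothing is read from it. The same holds for the shares of all genes on one side of 0. After PBS gavage all 10 members were lower than without treatment, each with an interval below 0, where 49.7% of all genes were lower and 18.3% had an interval below 0. Of the members 7 were past the rule, where 0.782% of all genes were past it on the lower side. Their median log2 ratio was -1.73, against 0.00 over all genes. The 7 were Akp3, Apoa4, Lct, Apoa1, Treh, Prap1 and Mttp, and Apoa4, Akp3 and Lct had the 3 lowest ratios of the 14450 genes. With library totals in place of the scaling factors Sis (-1.06) and Anpep (-1.05) also passed, where 1.08% of all genes were past the rule on the lower side.

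LGG against PBS sets 1 library after the probiotic gavage beside 1 library after PBS gavage. All 10 ratios were positive, 7 with an interval above 0, where 49.3% of all genes were positive and 14.3% had an interval above 0. On the higher side 5 members were past the rule (0.180% of all genes): Akp3, Apoa4, Apoa1, Lct and Prap1. The first 4 of these held the 4 highest ratios among all genes, and with a prior of 5 counts Akp3, Apoa4 and Apoa1 held the 3 highest and Lct was at 1.19, ranked 9 from the top. Treh, at 0.99, was just short of the limit. The median of the 10 was 1.06. With the limit on mean level at 5 CPM, which Akp3 and Lct do not reach, 3 members passed, namely Apoa4, Apoa1 and Prap1, as did 0.0507% of the 11837 genes at that level.

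E. coli against PBS gave mixed directions. Of the 10 genes 8 were lower, as were 49.3% of all genes, and 2, Treh and Anpep, were higher, with a median of -0.41. On the lower side 2 genes were past the rule (0.242% of all genes): Akp3, from 1 count against 9, and Apoa4 at -1.94 (-3.33 to -0.81), from 9 counts against 20. Intervals lay below 0 in 6 members and above 0 in 1, Anpep, against 8.93% and about 10% of all genes.

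The bacteria set against each other need no PBS library. LGG was above E. coli in 9 members, with Anpep as the exception, and in 49.9% of all genes. Its interval lay above 0 in 8 members and in 16.4% of all genes, and 5 members passed on the higher side (0.263% of all genes). These were Akp3 at 6.23 (4.37 to 12.19), from 118 counts against 1 and at 4.21 with a prior of 5 counts, Apoa4 at 4.18 (3.30 to 5.42) and 3.61 with that prior, Apoa1, Lct at 2.13 and Prap1 at 1.66 (1.34 to 2.01). Intervals also excluded 0 for Mttp at 0.70 (0.24 to 1.16), Sis at 0.47 (0.27 to 0.67) and Apob at 0.11 (0.05 to 0.18). The other enzyme, Treh, was at 0.63 (-0.07 to 1.38).

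Against the untreated library all 10 members were lower after LGG and after E. coli, each with an interval below 0. Over all genes 50.3% were lower after LGG and 49.0% after E. coli, with an interval below 0 in 23.0% and 22.4%. After LGG 3 passed, Apoa4, Lct and Akp3 (0.588% of all genes on the lower side), with a median of -0.79. At a 1.5-fold limit 7 members passed, as did 3.62% of all genes on the lower side. After E. coli 8 passed (1.53% of all genes), with a median of -1.86, and Anpep (-0.63) and Apob (-0.70) did not. These comparisons share libraries with those above and are set beside them, not counted as further evidence.

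**Figure D2:**
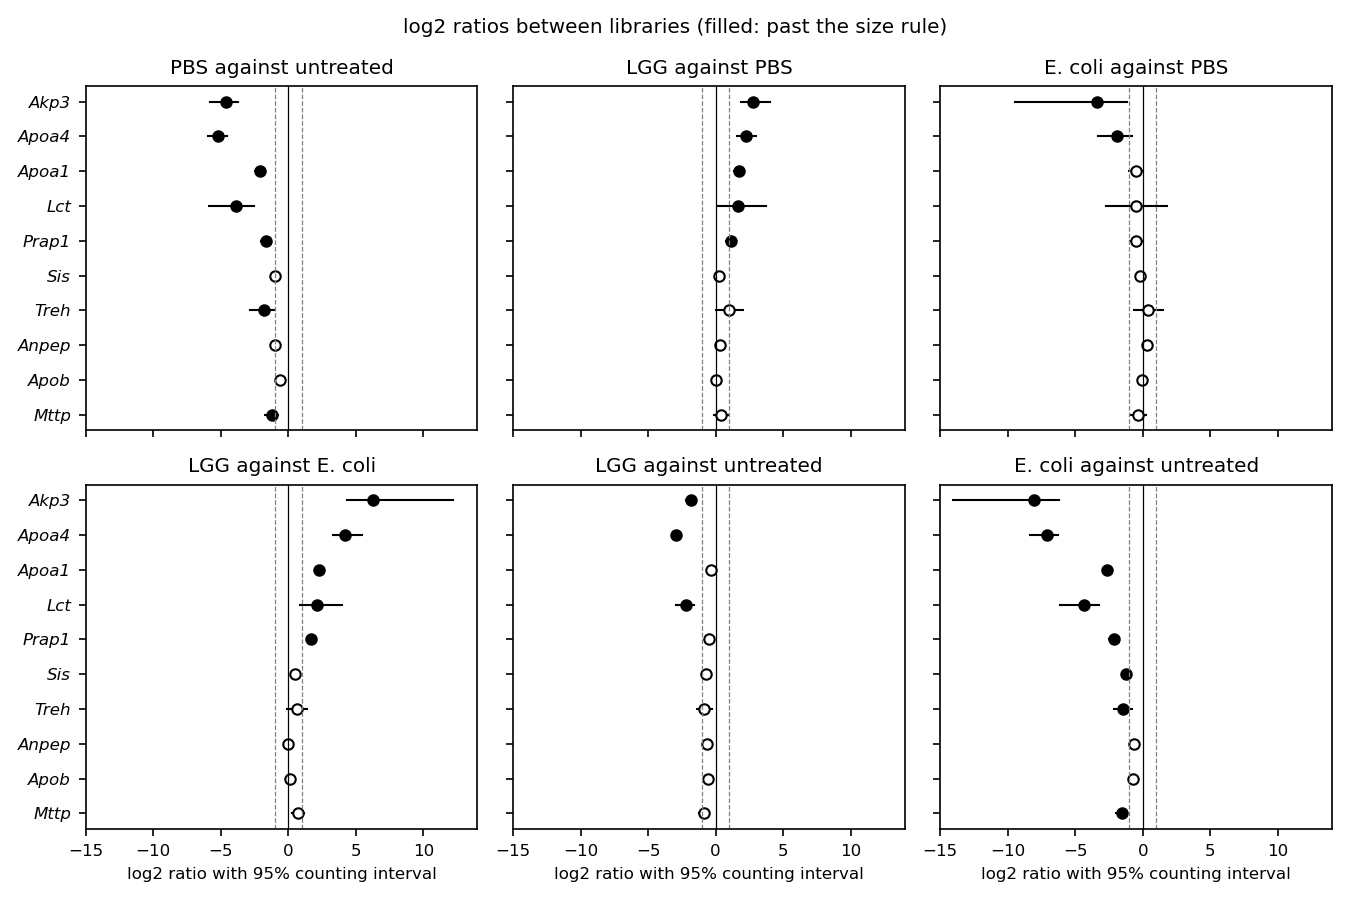
log2 ratio of each gene (points) with its 95% counting interval (bars) in the 6 comparisons; filled points are past the size rule and dashed lines mark a 2-fold difference. In PBS against untreated 7 of the 10 points are filled on the lower side, in LGG against PBS 5 on the higher side and in LGG against E. coli 5 on the higher side.

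Seen across the 4 libraries, the untreated library was the highest in 10 of 10 members, as it was in 33.6% of all genes, and LGG was next in 9, as in 11.7% of all genes. By level alone, the full order untreated, LGG, PBS, E. coli was found in 8 members and in 6.41% of all genes. Counting error did not resolve all of it. The interval of LGG to PBS included 0 for Sis, Apob and Mttp, and that of E. coli to PBS for Lct and Mttp. Treh and Anpep were the exceptions, with PBS lowest, and for Treh the interval of E. coli to PBS included 0. The difference between LGG and PBS, as a share of that between untreated and PBS, differed widely between members. In CPM it was 72.5% for Apoa1 and 57.3% for Prap1, between 38.8% and 15.5% for Treh, Akp3, Anpep, Mttp, Sis and Lct, 10.5% for Apoa4 and 3.0% for Apob. Akp3 (24.8%) and Apoa4 thus stood farther from the untreated level after LGG than Apoa1 and Prap1 did. These shares carry no counting interval, and their ranking depends on the CPM scale. In log2 ratios Apoa4 had 2.24 for LGG to PBS and -5.18 for PBS to untreated, while Sis had 0.22 and -0.97. For Mttp, Sis and Apob the interval of LGG to PBS included 0, so their shares cannot be told from none.

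**Figure D3:**
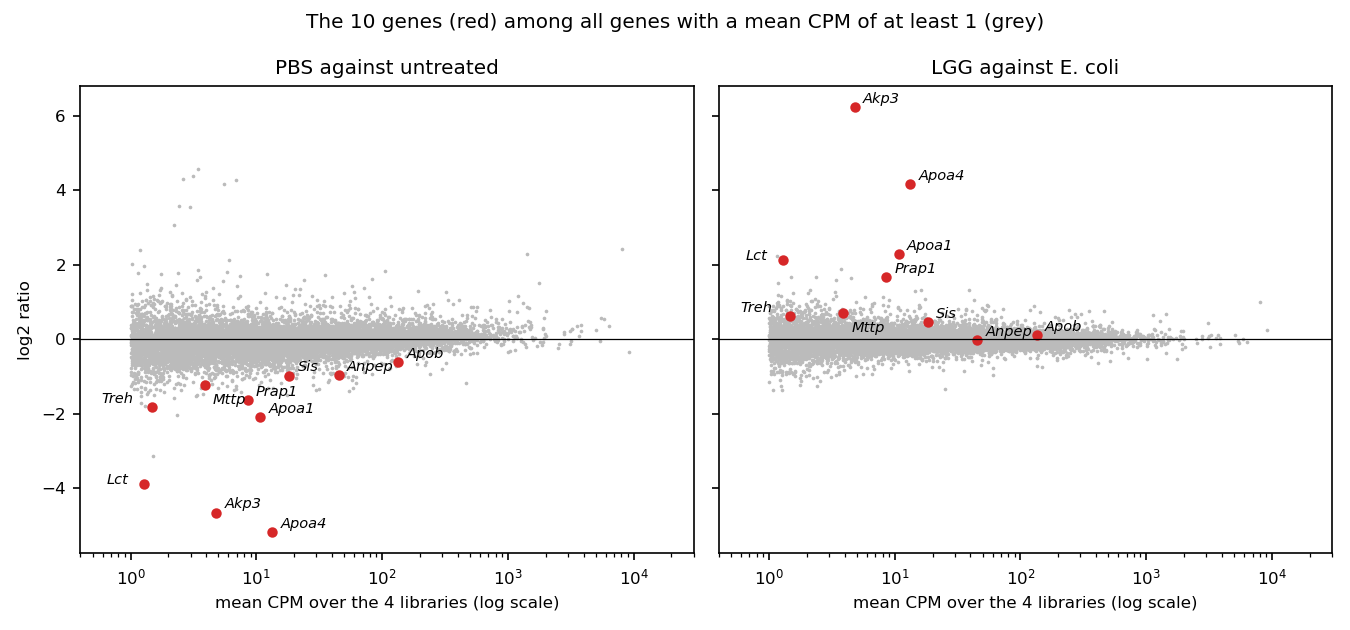
log2 ratio against mean CPM (log scale) for all 14450 genes (grey) and the 10 members (red), for PBS against untreated and for LGG against E. coli. In the first panel Apoa4, Akp3 and Lct are the 3 lowest points, and in the second Akp3 (6.23) and Apoa4 (4.18) stand highest.

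Other genes of the same functions were read from lists of the brush border, of fat absorption and of nutrient transport. The shares of all genes past the rule given above are the background for the counts in these and the later lists too. The 14 other brush border hydrolases with a mean of at least 1 CPM were mostly lower after PBS, with 12 negative ratios, a median of -0.61 and 1 past the rule, Mme (-1.19), a membrane peptidase. Against the untreated library after E. coli, 3 passed, namely Ggt1 (-1.17), Enpp3 (-1.14) and Enpep (-1.07), and the median was -0.44. The most abundant hydrolases of the list changed little. Mgam, maltase-glucoamylase, the partner of sucrase-isomaltase in starch digestion, was at 192, 201, 202 and 198 CPM (untreated, PBS, E. coli, LGG), and Mep1a, a meprin subunit, at 692, 600, 592 and 704. None of the 14 passed between LGG and PBS, E. coli and PBS, or LGG and E. coli.

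Of 26 tested genes of fat absorption and chylomicron assembly, the 3 past the rule after PBS were the members Apoa4, Apoa1 and Mttp. The 22 others had 13 positive and 9 negative ratios and a median of 0.05, which became -0.04 with library totals as the scaling. Fabp2, the intestinal fatty acid carrier, was at 330 CPM untreated, 322 after PBS, 274 after E. coli and 464 after LGG. Rbp2, which carries retinol in enterocytes, was lowest in the untreated library, at 18.4 CPM against 35.0 after PBS, 37.6 after E. coli and 35.2 after LGG. Mogat2, an enzyme of triglyceride resynthesis, was past the rule between the bacteria (1.27) and between E. coli and untreated (-1.27). Cd36, a fatty acid receptor, also passed on the lower side in the latter comparison (-1.16), where Rbp2 was higher (1.03, short of the limit with library totals).

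Of the 16 listed apolipoprotein genes 7 had a mean of at least 1 CPM, and the 4 that are no members had a median of -0.17 after PBS with none past the rule. Apoe, the apolipoprotein of macrophages and many other cells, was at 305 CPM untreated and 243, 241 and 260 after PBS, E. coli and LGG. Apod, a lipocalin, was past the rule in E. coli against untreated alone, at -1.02.

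Nutrient transporters had no common direction: 8 of 15 were higher and 7 lower after PBS, with a median of 0.08 (-0.01 with library totals). Slc34a2, a phosphate transporter (104, 41.8, 36.1 and 53.2 CPM in the order untreated, PBS, E. coli, LGG), and Slc28a2, a nucleoside transporter (5.89, 2.87, 3.99 and 4.03 CPM), passed on the lower side. The peptide transporter Slc15a1 went the other way, with 151 CPM untreated and 269, 293 and 229 CPM after PBS, E. coli and LGG. Among 17 transcription factors of enterocytes the median after PBS was 0.03 (-0.06 with library totals), and 1 passed, Isx, a homeobox repressor of carotenoid uptake and conversion, at 104, 46.6, 36.0 and 61.5 CPM. Hnf4a, the factor whose motif is marked in the Akp3 and Treh sequences above, was at 809, 885, 921 and 861 CPM. Cdx2, an intestinal identity factor, was at 236, 149, 148 and 225 CPM, lower after PBS at -0.66 and higher after LGG than PBS at 0.59.

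Several further small intestinal genes were below the 1 CPM mean and are given as counts, in the order untreated, PBS, E. coli and LGG. They were chosen after their values were seen. Tmprss15, enteropeptidase, which activates pancreatic trypsinogen in the duodenum, had 26 counts in the untreated library and 0 in each other one, at least 4.87-fold above PBS, 8.82-fold above E. coli and 8.88-fold above LGG at a floor of 3 counts per library. With the counting error of the 26 counts included, the lower bounds of the exact intervals were 3.69, 6.68 and 6.73. Fabp1, the fatty acid carrier shared by liver and small intestine, had 56, 2, 6 and 18 counts, 15.7-fold higher untreated than after PBS with an interval of 4.16 to 133. Slc2a2, the basolateral glucose transporter, had 13, 1, 1 and 6 counts, 7.31-fold above PBS (1.10 to 311). Other genes below that mean did not share this course. The apolipoprotein gene Apoa2 had 18, 12, 34 and 26 counts and was lower untreated than after E. coli, at 0.539-fold (0.286 to 0.981). Apoc1 had 20, 8, 12 and 24 counts, Apoh 9, 6, 13 and 15, the vitamin C transporter Slc23a1 27, 11, 22 and 29, and the transcription factor Pdx1 18, 6, 14 and 22, and no interval of untreated against another library excluded 1 in these 4. Gata4, another transcription factor, had 32, 8, 18 and 19 counts, 2.25-fold higher untreated than after PBS (1.01 to 5.65). None of these genes entered the counts above.

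**Figure D4:**
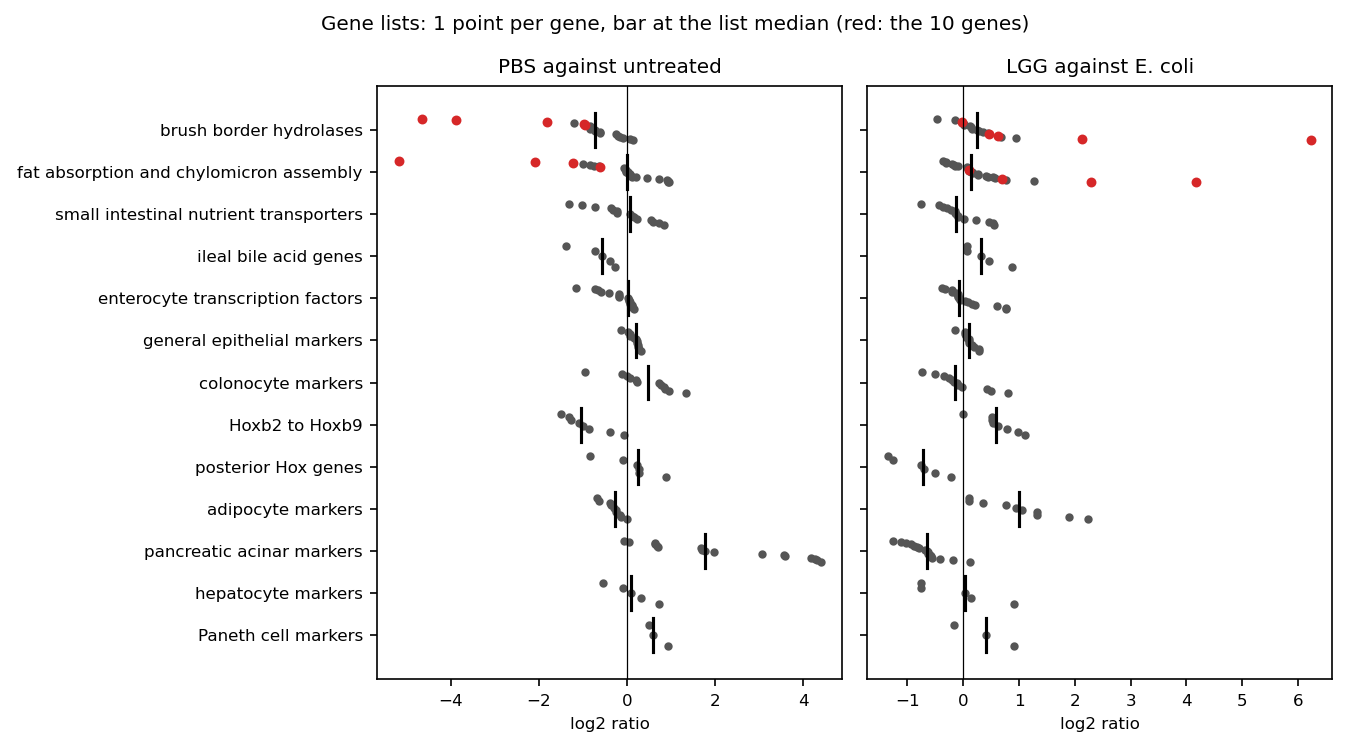
log2 ratio of every gene with a mean of at least 1 CPM in 13 lists (1 point per gene, members red, bar at the list median) for PBS against untreated and LGG against E. coli. The most outlying points of the hydrolase and fat absorption lists are members, while the acinar (1.78) and Hoxb2 to Hoxb9 (-1.04) lists are displaced as groups after PBS.

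Genes that lie beside the members were read in the same libraries. Apoa1, Apoc3, Apoa4 and Apoa5 lie in 1 cluster on chromosome 9, with the lower coordinates of Apoa4 and Apoa5 12.2 kb and 40.0 kb above that of Apoa1. Apoc3 spans 4.42 to 6.67 kb from that point on the opposite strand, so its start site is at the 6.67 kb end. Apoc3, an inhibitor of triglyceride clearance, was at 2.21 CPM untreated (63 counts), 0.436 after PBS (7 counts), 0.413 after E. coli (12 counts) and 0.683 after LGG (20 counts). Like both members it was highest in the untreated library, but its log2 ratio of LGG to PBS was 0.63 with an interval that includes 0 (-0.65 to 2.13). Per unit length Apoc3 was 0.212 times as abundant as Apoa1 untreated (0.160 to 0.275) and 0.0830 times after LGG (0.0502 to 0.130). Apoa5 had 3, 1, 0 and 1 counts. The next genes, Zpr1 at 44.4 kb (30.2, 30.2, 28.9 and 28.9 CPM) and Bud13 at 54.4 kb (15.1, 18.3, 16.5 and 15.9 CPM), encode proteins unrelated to lipoproteins and varied little. On the other side and farther out, Sik3, Pafah1b2, Tagln and Pcsk7 had log2 ratios of PBS to untreated of 0.22, -0.07, 0.04 and 0.01.

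Akp3 lies beside 2 other alkaline phosphatase genes on chromosome 1. Alpi, on the opposite strand with its lower coordinate 27.0 kb below that of Akp3, was at 46.6 CPM untreated, 28.2 after PBS, 26.6 after E. coli and 42.8 after LGG, with log2 ratios of -0.72 for PBS to untreated and 0.60 for LGG to PBS. By level the order of the libraries was that of Akp3, over a far smaller range. The step from PBS to E. coli was only -0.08 on the log2 scale (453 and 774 counts), and no interval is given for it. Per unit length Akp3 was 0.436 times as abundant as Alpi in the untreated library (0.389 to 0.487), 0.0277 times after PBS (0.0126 to 0.0530) and 0.131 times after LGG (0.108 to 0.159). Alppl2 had 12, 0, 8 and 8 counts. These phosphatases are similar in sequence, and no source used here says how reads that match several of them were counted. Eif4e2, 88.9 kb to the other side, was at 68.8 to 74.9 CPM. Alpl, the tissue-nonspecific phosphatase, was at 1.25 to 2.00 CPM.

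**Figure D5:**
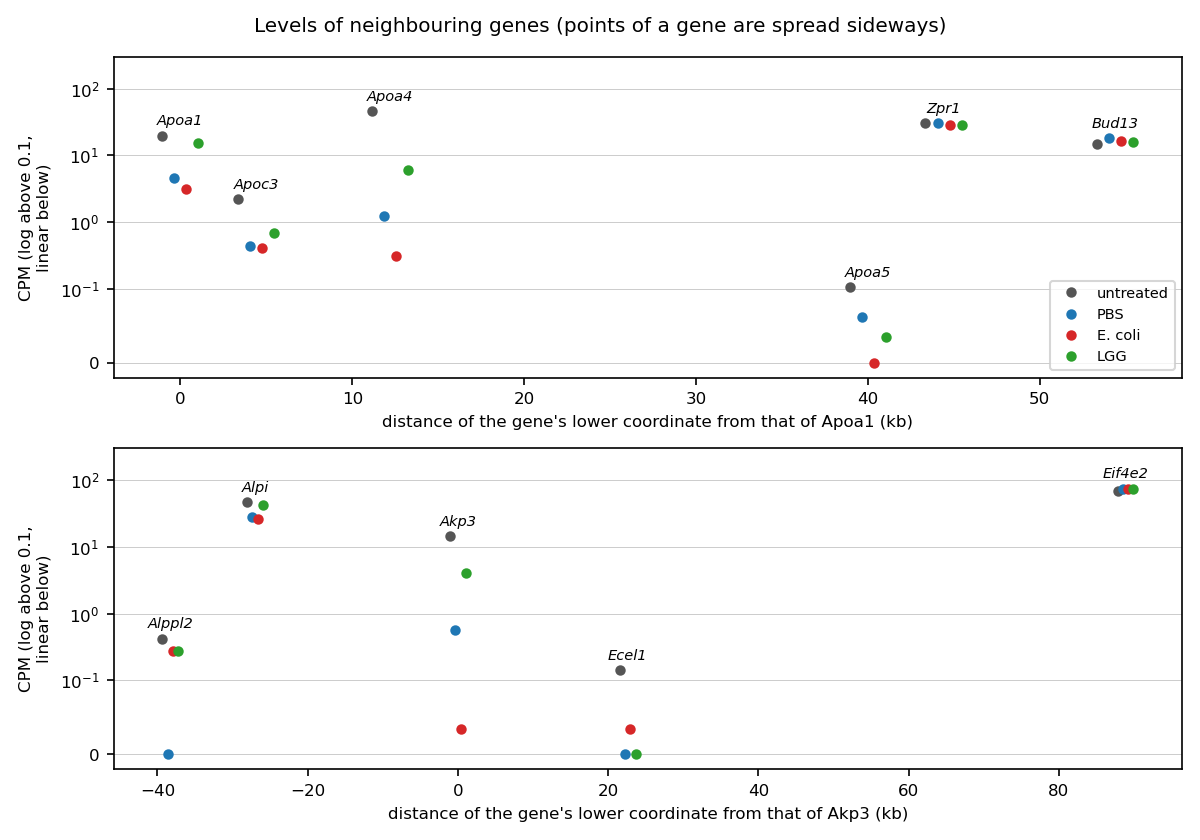
CPM (log scale above 0.1, linear below) of genes near Apoa1 (top) and near Akp3 (bottom) against the distance of each gene's lower coordinate from that of Apoa1 or Akp3 in kilobases, with 1 point per library, spread sideways. Apoa1, Apoc3, Apoa4 and Akp3 vary between libraries, while Zpr1, Bud13 and Eif4e2 lie on nearly the same level in all 4.

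Genes of other cells and of position differed between the same libraries. The 12 general epithelial markers summed to 17875 CPM untreated, 20749 after PBS, 20565 after E. coli and 21874 after LGG. Their median log2 ratio of PBS to untreated was 0.22, with 11 of 12 positive. With library totals it was 0.13, with 8 of 12 positive. Less the median of 0.22, the member ratios after PBS ran from -5.40 for Apoa4 to -0.82 for Apob. The part of epithelial content in the members' values was not tested. Colonocyte markers were higher after PBS in 10 of 12 genes (median 0.47), or in 8 with library totals. Slc26a3, a chloride exchanger of the colon surface, was at 859 CPM untreated against 1575, 1673 and 1543 after PBS, E. coli and LGG.

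Hox genes, whose expression follows position along the gut, were displaced too. From Hoxb2 to Hoxb9 all 8 were lower after PBS (4 past the rule, median -1.04), all 8 were higher after LGG than PBS (median 0.36), and their sums were 237, 152, 142 and 176 CPM for untreated, PBS, E. coli and LGG. This is the order by level in 8 of the members, not all of it beyond counting error. The 6 posterior Hox genes with a mean of at least 1 CPM summed to 184, 301, 362 and 246 CPM, the reverse order, and Hoxc13 was at 0 in all libraries. Most of each sum was Hoxb13, at 134, 248, 286 and 203 CPM. After PBS 4 of the 6 were higher and 2 lower than untreated (median 0.25). After LGG 2 were higher and 4 lower than untreated (median -0.35), so the order of the sums does not hold for each gene. Genes of ileal bile acid handling were lower after PBS in 5 of 5 cases (median -0.57), with Slc51a, a subunit of the basolateral bile acid exporter, past the rule at -1.39. All 5 were also lower than untreated after E. coli (median -0.83) and after LGG (median -0.41). They were all higher after LGG than after E. coli (median 0.32). The part of the sampled position along the colon in the members' values was not tested.

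Pancreatic acinar genes ran differently. Of 17 tested, 11 were past the rule on the higher side after PBS (median 1.78), 12 after E. coli against PBS (median 1.73) and 6 after LGG against PBS (median 0.92), with sums of 266, 437, 608 and 422 CPM in the order used above and Amy2a5 at 0 throughout. Of all 14450 genes, 96, 25 and 26 were past it on that side in these comparisons. Adipocyte genes, present in fat attached to the gut wall, were higher after LGG than after E. coli in 10 of 10 cases (5 past the rule, median 1.00). They summed to 505, 424, 413 and 525 CPM. All 10 were also higher after LGG than after PBS (median 0.39). Against untreated, 9 of 10 were lower after PBS (median -0.27) and 9 of 10 after E. coli (5 past the rule, median -0.84). After LGG 6 of these genes were higher than untreated and 4 lower (median 0.07). Their part in the members' values was not tested. Of 14 hepatocyte genes 5 had a mean of at least 1 CPM, and the list summed to 66.5, 79.2, 86.9 and 76.5 CPM, most of it Tat and Ttr. The fibrinogen genes Fga, Fgb and Fgg were at 0 in every library, and Alb, albumin, was at 0.876, 0.935, 1.24 and 1.37 CPM. The part of these genes in the members' values was not tested.

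The genes whose course over the 4 libraries was most like the members were found by the Euclidean distance between profiles of log2 CPM, each centred on its own mean, among 13654 protein-coding genes. The median member profile was 1.05, -0.68, -0.87 and 0.29 log2 units from the gene's mean in the untreated, PBS, E. coli and LGG libraries. Nearest to it were Hoxb6 (0.34), Slc51a (0.37), Gabre (0.37), Acaa1b (0.38) and Hoxb7 (0.41), followed by Tmem229a, Ugt2b5, Osr2, Hoxb8 and Nts at 0.42 to 0.45. Hoxb6 was at 33.1, 11.7, 7.95 and 17.0 CPM and Slc51a at 99.8, 38.1, 28.9 and 53.2. Of the members themselves, Prap1 (0.38), Treh (0.46) and Mttp (0.51) lay nearest to the median profile. Sis (0.73), Apoa1 (0.84), Anpep (1.05), Apob (1.10) and Lct (1.89) lay farther from it than all the non-members just named. Akp3 (4.68) and Apoa4 (3.80) lay farthest from it. Hoxb6 was also the nearest non-member to Prap1 (0.48) and to Apoa1 (0.99). Members were left out of this search, so they were not compared with each other. Among the non-members Apoa4 had no close match. Adamts4, a matrix protease, was nearest at 3.58 and was not higher after LGG than after PBS (-0.16). With 4 libraries this likeness rests on 4 values per gene.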

How the data were processed

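RNA from germ-free mouse colon was sequenced in 4 libraries, 1 per condition. TopHat2, HOMER and build mm9 are named in the submitters' processing notes; no source used here gives their versions, their roles or whether counting used strand. The authors deposited 1 table of expected counts for 24016 genes, in steps of 0.5, which were rounded to whole numbers; 61.4% of values were whole already. The untreated library had 27220697 counts in total, PBS 16289580, E. coli 29368008 and LGG 29899371.

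Levels are CPM on TMM-scaled library sizes (factors 1.05, 0.985, 0.989 and 0.979; edgeR 4.0.16, R 4.3.3). log2 ratios used a prior of 0.5 counts, with exact conditional binomial (Clopper-Pearson) 95% intervals. Reads carried no molecular identifiers, so PCR copies cannot be told from separate molecules; the intervals cover counting error only, as does the limit that a 0 allows (3 counts, or 0.103 to 0.187 CPM). The size rule needed a log2 ratio of at least 1 in size, an interval excluding 0 and a mean CPM of at least 1. No test was possible with 1 library per group. Python 3.11.15, numpy 2.4.6, scipy 1.17.1, pandas 2.3.3 and matplotlib 3.10.9 were used.

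Members and all gene lists were chosen with earlier results of these data known. Besides the members, most named genes are up to 4 per list with the largest ratios past the rule in a comparison, or its 2 most abundant where none passed. All cluster neighbours and alkaline phosphatases and the nearest profiles are also named. Not every named gene follows this rule, Car1, Amy2a5 and Fgf15 among them. In the colonocyte, acinar and adipocyte lists no gene past the rule is named. Below-filter genes, Slc15a1, Cdx2, Slc26a3, Hoxb13, Alb, the fibrinogens, Hnf4a and Fabp2 were picked after their values were seen. Alternatives were DESeq2 1.42.0 size factors, library totals, upper-quartile factors, no expression filter or 5 CPM, a prior of 5 counts, a 1.5-fold limit and rounding down.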

Additional observations from a re-analysis of the deposited data

Results flagged for a closer look

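Akp3 and Apoa4 moved in opposite directions after the 2 bacteria, each set against the same PBS library. Akp3 had a log2 ratio of 2.80 after LGG and -3.43 after E. coli, a difference of 6.23, which rests on 118, 1 and 9 counts in the LGG, E. coli and PBS libraries. Apoa4 had 2.24 after LGG and -1.94 after E. coli, a difference of 4.18. These sizes depend on the prior count: with a prior of 5 counts Akp3 had 2.48 and -1.72, a difference of 4.21, and Apoa4 2.09 and -1.51, a difference of 3.61, with the directions kept. Each condition is 1 library, so these differences were not tested.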

How the results depend on the processing

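No paired analysis was possible because each condition is 1 library and the labels carry no replicate numbers, and no library could be left out for the same reason. Of the recomputed counts of genes and members, 71 stayed within 1.5 times and 25 did not, and no member past the rule changed sign. The counts that moved did so with the filter and the limit. Given in the order PBS to untreated, LGG to PBS, E. coli to PBS, LGG to E. coli, LGG to untreated and E. coli to untreated, the genes past the rule were 209, 40, 60, 52, 151 and 340. Without an expression filter they were 358, 106, 135, 162, 333 and 597. At a mean of 5 CPM they were 85, 6, 10, 13, 51 and 152, and the members 3, 3, 1, 3, 1 and 4, since 4 members have lower means. At 1.5-fold they were 855, 227, 212, 316, 760 and 1199, and 7 members passed in LGG against untreated. Library totals shifted the median of all genes by -0.09, -0.10 and -0.08 in PBS, LGG and E. coli against untreated and the higher and lower calls from 96 and 113 to 73 and 156, from 66 and 85 to 54 and 133, and from 119 and 221 to 90 and 281. Depth limits Akp3, Apoa4 and Lct, which had 20 counts or fewer in the PBS and E. coli libraries.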
